A study of Drosophila melanogaster with 12 samples.

Results

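The Cyp4 clan is one of the branches into which insect cytochrome P450 genes are grouped. It was described here as the fly genes whose symbols begin with Cyp4, Cyp311, Cyp312, Cyp313, Cyp316 or Cyp318, with 1 gene of that name pattern outside the set. There were 31 such genes with a probe set of their own, among 11982 genes with one. Each of the 31 was read by a single probe set. They were chosen by gene name, with earlier results of these data known.

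Cytochrome P450 enzymes are haem proteins of the endoplasmic reticulum or the mitochondrion that insert an oxygen atom into a substrate, with electrons delivered by P450 reductase and in some reactions by cytochrome b5. Mammalian CYP4 enzymes are known for hydroxylating fatty acids at the end of the chain, and in the cockroach Diploptera punctata the enzyme CYP4C7 hydroxylates juvenile hormone and its sesquiterpenoid precursors in the corpora allata. In Drosophila, Cyp4g1 of the oenocytes carries out the decarbonylation that yields cuticular hydrocarbons, while the substrates of most other clan members are not known.

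Whole adult females of 4 genotypes were profiled on Affymetrix Drosophila 2.0 arrays, with 3 arrays per genotype and RNA of 25 pooled females on each array. The labels give the females as 15 days old, and the rearing description says that adults were aged to 14 days. The question was how loss of juvenile hormone alters transcripts when eggs are and are not made.

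CAKO (corpora allata knockout) females carried Aug21-Gal4 with UAS-GFP and UAS-NIPP1, which expresses a phosphatase inhibitor in the corpora allata, the gland that makes juvenile hormone, and destroys it. Ablation was incomplete in some females. Wildtype females carried neither driver nor UAS construct. OvoD1 females carried the dominant female-sterile OvoD1 allele and had intact corpora allata, and CAKO;OvoD1 females carried that allele along with the ablation constructs. The sources do not give the backgrounds in the same way for all groups. The series design names wDah/w1118 for the controls, while a legend of the study places the fertile pair in wDAH and the OvoD1 pair in a mixture of w1118 and wDAH. Background and OvoD1 therefore cannot be told apart in the comparisons across fertility.

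Values are GC-RMA expression values on the log2 scale, with a floor at 2.13 to which undetected probe sets are set. A gene was called when its adjusted p was under 0.05 in limma's moderated test over all 12 arrays, with Benjamini-Hochberg adjustment over every probe set kept, and the difference was at least 1.5-fold. The verbs rose and fell are used only of called genes. Array medians lay between 2.86 and 2.92. The gene jhamt, which encodes the juvenile hormone acid methyltransferase of the corpora allata, read 4.61, 4.71 and 4.64 in wildtype and 3.26, 2.79 and 3.34 in CAKO. In the sterile pair jhamt read 6.72, 6.66 and 6.56 in OvoD1 and 3.75, 4.59 and 4.56 in CAKO;OvoD1. The ablation left it 2.88-fold lower without OvoD1 and 5.08-fold lower with it (limma adjusted p = 0.00213 and 0.000487). Of 7 genes of the male accessory gland and testis, 6 were at the floor in every genotype.

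**Figure D1:**
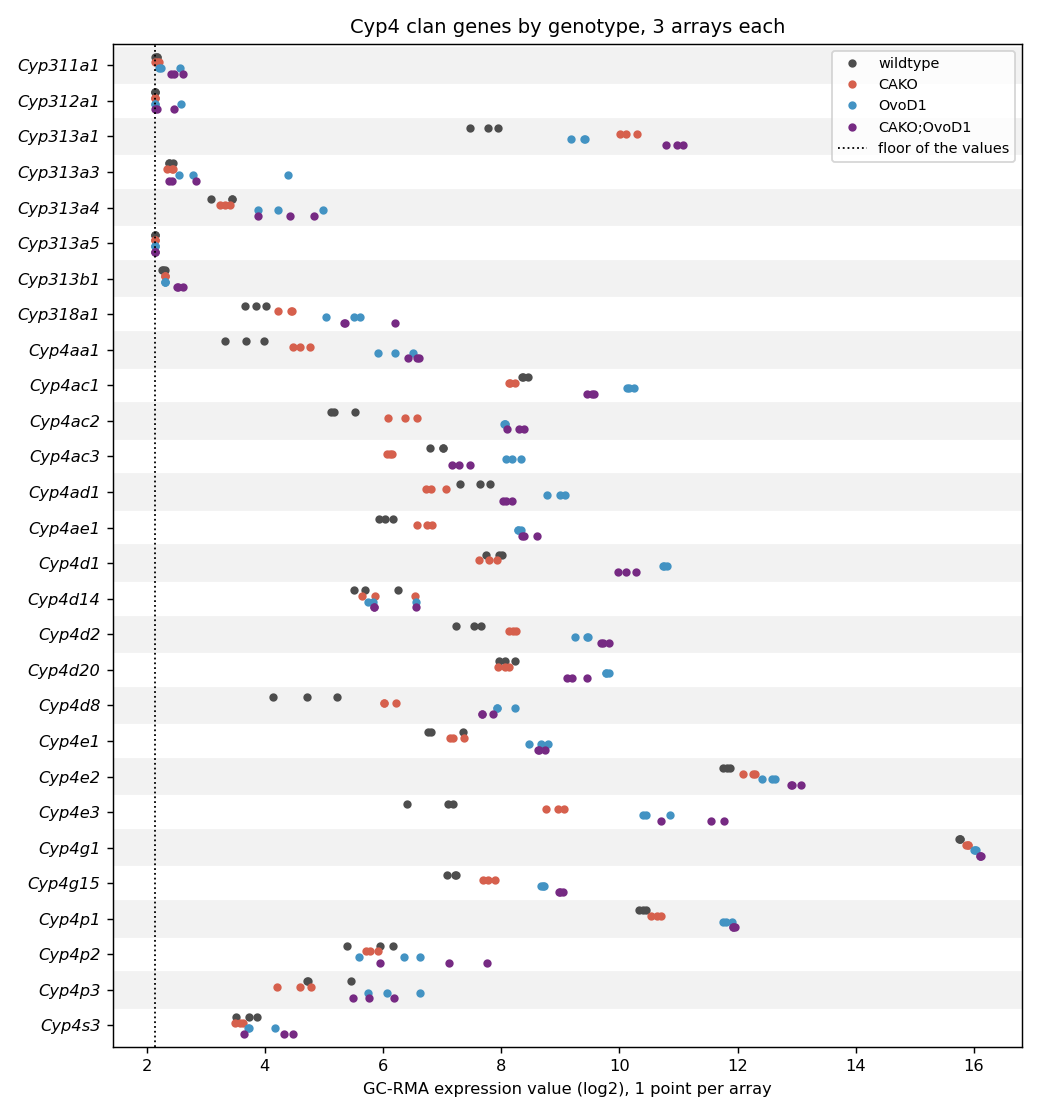
GC-RMA expression value on the log2 scale (horizontal axis) of the 28 tested Cyp4 clan genes (rows, by name), with 1 point per array and 3 arrays in each of the 4 genotypes; the dotted line is the floor at 2.13. Points are to be compared within a row, since probe sets differ in response. For genes such as Cyp4e3 and Cyp4d1 the OvoD1 and CAKO;OvoD1 points lie to the right of the wildtype and CAKO points, while the OvoD1 points of Cyp313a1 lie left of its CAKO points.

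Of the 31 genes, 3 did not pass the filter on low values and were not tested. These were Cyp313a2, Cyp316a1 and Cyp4c3, which sat at the floor of 2.13 on all 12 arrays. Among the 28 that passed, Cyp313a5 was also within 0.2 of the floor in every genotype. Cyp311a1 and Cyp312a1 were at the floor in wildtype and CAKO and did not exceed 2.62 and 2.58 on any array. Cyp313b1 was at the floor in every genotype but CAKO;OvoD1, where it read 2.54, 2.61 and 2.52. At the other end, Cyp4g1 read between 15.75 and 16.12, against array maxima of 16.23 to 16.41, which leaves little range above it.

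In fertile females the ablation raised 8 of the 31 genes and lowered 2. Over all 9968 genes tested, 3.89% were called higher and 2.30% lower in the same comparison. The genes that rose were Cyp313a1, Cyp4e3, Cyp4d8, Cyp4ac2, Cyp4aa1, Cyp4d2, Cyp4ae1 and Cyp4g15, and those that fell were Cyp4ac3 and Cyp4ad1. The median log2 difference over all 31 was 0.01, against 0 over all genes tested, with called genes on both sides. When each array was centred on 21 muscle and photoreceptor genes, whose mean moved by 0.18 in this comparison, 5 clan genes were called higher and 2 lower, among 2.83% of all genes higher and 5.15% lower, and Cyp4ae1, Cyp4d2 and Cyp4g15 fell short of 1.5-fold.

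Cyp313a1 had the largest change of the clan in this comparison. It read 7.47, 7.78 and 7.94 in wildtype and 10.10, 10.30 and 10.01 in CAKO. The lowest CAKO array exceeded the highest wildtype array by a wide margin. It rose 5.31-fold, a log2 difference of 2.41 ± 0.13 (SE, limma adjusted p = 1.31e-05).

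Cyp4e3, a gene of the Malpighian tubule whose product has been tied to permethrin tolerance, read 6.41, 7.18 and 7.10 in wildtype and 9.06, 8.96 and 8.75 in CAKO. The first wildtype array was the lowest of the 12, and the groups did not overlap. Cyp4e3 rose 4.07-fold (log2 difference 2.02 ± 0.30 SE, limma adjusted p = 0.00212).

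Cyp4d8 read 4.14, 5.22 and 4.71 in wildtype, where the arrays were widely spread, and 6.22, 6.02 and 6.02 in CAKO. The groups stood apart, and the gene rose 2.63-fold (log2 difference 1.39 ± 0.23 SE, limma adjusted p = 0.00413). Cyp4ac2 read 5.17, 5.52 and 5.12 in wildtype and 6.08, 6.36 and 6.57 in CAKO, again without overlap, and rose 2.10-fold (limma adjusted p = 0.00134). Cyp4aa1 read 3.33, 3.69 and 3.98 in wildtype and 4.47, 4.59 and 4.77 in CAKO. Its highest wildtype array stayed below its lowest CAKO array, and it rose 1.92-fold (limma adjusted p = 0.0105).

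Another 3 genes rose by amounts nearer to the 1.5-fold threshold. Cyp4d2 read 7.23, 7.66 and 7.53 in wildtype and 8.25, 8.20 and 8.13 in CAKO and rose 1.65-fold (limma adjusted p = 0.00210). Cyp4ae1 read 5.93, 6.16 and 6.04 in wildtype and 6.58, 6.83 and 6.75 in CAKO and rose 1.60-fold (limma adjusted p = 0.00132). In both genes every CAKO array was above every wildtype array. Cyp4g15, a gene with expression in the nervous system, read 7.08, 7.24 and 7.21 in wildtype and 7.89, 7.69 and 7.78 in CAKO, with little spread in either group. It rose 1.53-fold (limma adjusted p = 0.000200), and without wildtype replicate 1 or CAKO replicate 1 it was no longer 1.5-fold (lowest log2 difference 0.56).

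The genes that fell were Cyp4ac3 and Cyp4ad1. Cyp4ac3 read 7.02, 6.80 and 7.02 in wildtype and 6.15, 6.12 and 6.07 in CAKO, and Cyp4ad1 read 7.31, 7.64 and 7.80 against 7.06, 6.82 and 6.73. Neither pair of groups overlapped. Cyp4ac3 was 1.78-fold lower (limma adjusted p = 0.000821) and Cyp4ad1 1.64-fold lower (limma adjusted p = 0.00877). Fitted on the 6 fertile arrays alone, Cyp4ad1 and Cyp4d8 missed the threshold, with limma adjusted p of 0.0717 and 0.0579.

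Tissue markers moved in the fertile comparison as well. Of 12 eggshell genes, 6 fell, and the log2 of their summed level ranged from 16.7 to 17.4 in wildtype and from 14.29 to 16.03 in CAKO. Of 12 muscle genes, 3 rose, with a summed level of 14.9 on each wildtype array after rounding and 15.2 to 15.3 in CAKO. Of 5 midgut genes 2 rose, and of 9 fat body genes 4 fell, namely Lsd-1, Yp2, Yp3 and fit. The study also reports lower yolk protein mRNA in CAKO females. None of 5 Malpighian tubule genes, 9 photoreceptor genes or 9 germ line genes was called. Over all genes tested, 3.89% were called higher and 2.30% lower. Send1, 1 of 2 spermatheca genes, fell. The part of these shifts in the Cyp4 results was not tested. In RNA of whole flies, more cells of a type and more RNA per cell cannot be told apart.

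In sterile females, where OvoD1 blocks egg production with and without the gland, the ablation raised 1 of the 31 genes and lowered 4. The background was 2.26% of genes called higher and 2.19% lower. Cyp313a1 rose, while Cyp4ac3, Cyp4ad1, Cyp4ac1 and Cyp4d1 fell. The median over the 31 was 0.04 on the log2 scale. After muscle and photoreceptor centring, which lowered every difference by 0.28, 1 gene was higher and 6 were lower, among 1.14% of all genes higher and 8.76% lower, with Cyp4d20 and Cyp313a3 added.

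On the sterile arrays Cyp313a1 read 9.18, 9.42 and 9.41 in OvoD1 and 10.79, 10.98 and 11.08 in CAKO;OvoD1. The groups did not overlap, and the gene rose 3.06-fold (log2 difference 1.61 ± 0.13 SE, limma adjusted p = 0.000243). Cyp4ac3 read 8.34, 8.08 and 8.19 in OvoD1 and 7.16, 7.48 and 7.28 in CAKO;OvoD1, and was 1.86-fold lower (limma adjusted p = 0.00102). Cyp4ad1 read 9.08, 8.78 and 8.996 in OvoD1 and 8.18, 8.03 and 8.09 in CAKO;OvoD1, and was 1.81-fold lower (limma adjusted p = 0.00524). In these 2 genes the lowest OvoD1 array lay well above the highest CAKO;OvoD1 array.

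Cyp4ac1 fell with little spread between arrays. It read 10.25, 10.14 and 10.17 in OvoD1 and 9.57, 9.53 and 9.46 in CAKO;OvoD1, a 1.58-fold decrease (log2 difference -0.66 ± 0.04 SE, limma adjusted p = 7.83e-05). Its fertile arrays read 8.36, 8.45 and 8.37 in wildtype and 8.23, 8.14 and 8.12 in CAKO, which did not overlap either but differed by 1.17-fold (limma adjusted p = 0.0104), under the fold threshold. Cyp4d1 read 10.74, 10.80 and 10.76 in OvoD1 and 10.28, 9.97 and 10.11 in CAKO;OvoD1. It was 1.57-fold lower (limma adjusted p = 0.00499), and without CAKO;OvoD1 replicate 2 the log2 difference of -0.57 was short of 1.5-fold. In fertile females Cyp4d1 overlapped between groups, at 7.75, 8.02 and 7.97 in wildtype and 7.94, 7.63 and 7.80 in CAKO.

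Among the markers, 2 of 12 muscle genes rose in the sterile comparison, with a summed level of 15.4 on each OvoD1 array after rounding and 15.74 to 16.02 in CAKO;OvoD1 on the log2 scale. Of 9 fat body genes 2 fell, Lsd-1 and fit, and 1 each of 5 midgut and 5 Malpighian tubule genes rose. Over all genes tested, 2.26% were called higher and 2.19% lower. In the germ line, eggshell and spermatheca lists 1 gene each fell, namely zpg, Vm34Ca and Send1. The log2 of the summed eggshell level was 8.22 to 9.08 in OvoD1 and 6.79 to 7.22 in CAKO;OvoD1. The part of these changes was not tested.

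**Figure D2:**
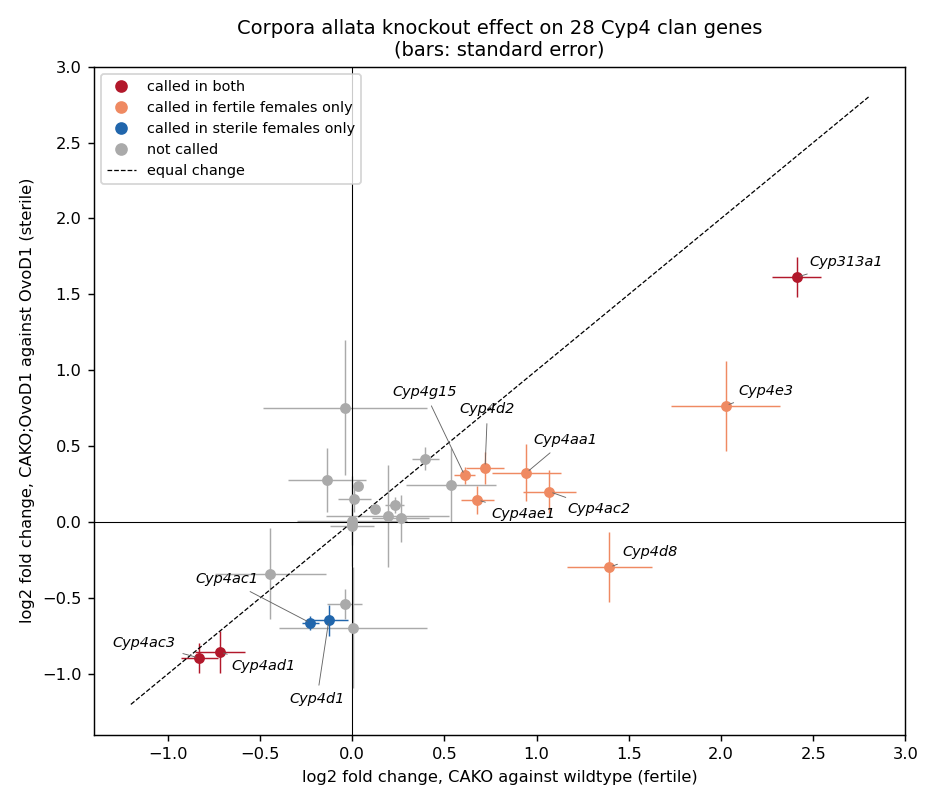
Log2 fold change of the ablation in fertile females (CAKO against wildtype, horizontal axis) and in sterile females (CAKO;OvoD1 against OvoD1, vertical axis) for the 28 tested Cyp4 clan genes, with standard errors as bars and colour giving where a gene was called. Cyp313a1 is high on both axes (2.41 and 1.61), Cyp4ac3 and Cyp4ad1 are low on both, and Cyp4d8 lies far below the line of equal change.

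The fertile and sterile comparisons share no array. Cyp313a1 was the 1 clan gene that rose in both, against 0.953% of all genes tested, and Cyp4ac3 and Cyp4ad1 were the 2 that fell in both, against 0.612%. No clan gene was called in opposite directions. The other 7 genes that rose in fertile females were not called in sterile females, and Cyp4ac1 and Cyp4d1 were called in sterile females alone. Whether the 2 effects differ is tested by the interaction, the sterile effect minus the fertile one. By the legend cited above the pairs also differ in background, so fertility and background cannot be told apart in it.

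The interaction was called for 3 of the 31 genes, all with a lower effect in sterile females, against 2.22% of all genes called lower and 1.34% called higher. Muscle and photoreceptor centring added Cyp4d1 and Cyp4e3, at -0.62 and -1.35, among 3.64% of genes lower and 1.06% higher. For Cyp4d8 the effect was 1.39 in fertile and -0.30 in sterile females on the log2 scale, where the arrays read 7.93, 7.93 and 8.24 in OvoD1 and 7.68, 7.67 and 7.86 in CAKO;OvoD1. The difference was -1.69 ± 0.33 (SE, limma adjusted p = 0.0219). For Cyp4ac2 the effects were 1.07 and 0.20, with sterile arrays at 8.06, 8.05 and 8.06 and at 8.38, 8.30 and 8.11, and the difference was -0.87 ± 0.20 (SE, limma adjusted p = 0.0444). For Cyp313a1 the difference was -0.80 ± 0.19 (SE, limma adjusted p = 0.0467), so the gene rose in both pairs and by less in the sterile one.

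The last 2 of these calls were close to the threshold. Leaving out any 1 of 11 arrays ended the Cyp313a1 call, with differences from -0.90 to -0.67, and leaving out any 1 of 10 ended that of Cyp4ac2, with differences from -0.997 to -0.75. The Cyp4d8 call was lost only without CAKO replicate 1 or OvoD1 replicate 3, with differences from -1.96 to -1.42. No clan gene was called with a higher effect in sterile females in limma. At an unadjusted p under 0.05 there was 1, Cyp313b1, whose difference of 0.21 also had a limma adjusted p of 0.00630 but was under 1.5-fold.

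The remaining genes that rose in fertile females alone had interactions that missed the call, which needs both the adjusted p and 1.5-fold. All but Cyp4ae1 missed on the adjusted p, so a difference between the pairs was not shown for those. Cyp4e3 read 10.45, 10.86 and 10.40 in OvoD1 and 11.77, 11.55 and 10.70 in CAKO;OvoD1. The last of these arrays lay inside the OvoD1 range, the log2 difference was 0.77 ± 0.30 (SE, limma adjusted p = 0.147), and without CAKO;OvoD1 replicate 3 the difference was 1.08 and was called. The interaction of Cyp4e3 was -1.26 ± 0.42 (SE, limma adjusted p = 0.139).

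Cyp4aa1 read 6.51, 5.92 and 6.21 in OvoD1 and 6.42, 6.62 and 6.58 in CAKO;OvoD1, with overlap, and Cyp4d2 read 9.46, 9.24 and 9.46 against 9.83, 9.72 and 9.69, without overlap. Their sterile log2 differences were 0.33 and 0.36 (limma adjusted p = 0.346 and 0.0635). Cyp4ae1 differed by 0.15 (limma adjusted p = 0.381) and Cyp4g15 by 0.31 (limma adjusted p = 0.01004), the latter under the fold threshold. For Cyp4ae1 the interaction passed on the adjusted p (limma, 0.0488), at a log2 difference of -0.53 that was short of 1.5-fold.

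Some genes stayed under 1.5-fold in both ablation pairs. Cyp4e2 read 11.75, 11.83 and 11.88 in wildtype and 12.26, 12.30 and 12.09 in CAKO. Its sterile arrays read 12.59, 12.42 and 12.63 in OvoD1 and 13.07, 12.90 and 12.93 in CAKO;OvoD1. The groups of each pair did not overlap, and the log2 differences of 0.40 and 0.42 (limma adjusted p = 0.00807 and 0.00862) were below the fold threshold. Cyp4g1, the hydrocarbon-forming enzyme of oenocytes, had differences that turned negative under muscle and photoreceptor centring (-0.06 fertile, -0.19 sterile). Uncentred, it read 15.77, 15.77 and 15.75 in wildtype and 15.90, 15.89 and 15.86 in CAKO. The log2 difference was 0.13 ± 0.02 (SE, limma adjusted p = 0.00335). Cyp4d20 differed by -0.54 in the sterile pair (limma adjusted p = 0.00865), with 9.82, 9.78 and 9.77 in OvoD1 and 9.45, 9.11 and 9.19 in CAKO;OvoD1, and by -0.04 in the fertile pair.

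The OvoD1 allele went with higher values of most detected clan genes. With the gland intact, 19 of the 31 rose and 0 fell, where 25.0% of all genes tested were called higher and 28.5% lower. With the gland ablated, 19 rose and 0 fell, where 25.3% of all genes were called higher and 26.5% lower, and the 19 were the same genes. At an unadjusted p under 0.05, limma placed 20 and 24 genes higher and 0 lower, and the t-test named in the methods also placed 0 lower. The share of all genes at that threshold is not given here, so these counts are not read as a result about the clan. The median log2 difference over the 31 was 1.26 with the gland and 1.19 without it, against medians of 0 over all genes with a probe set.

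**Figure D3:**
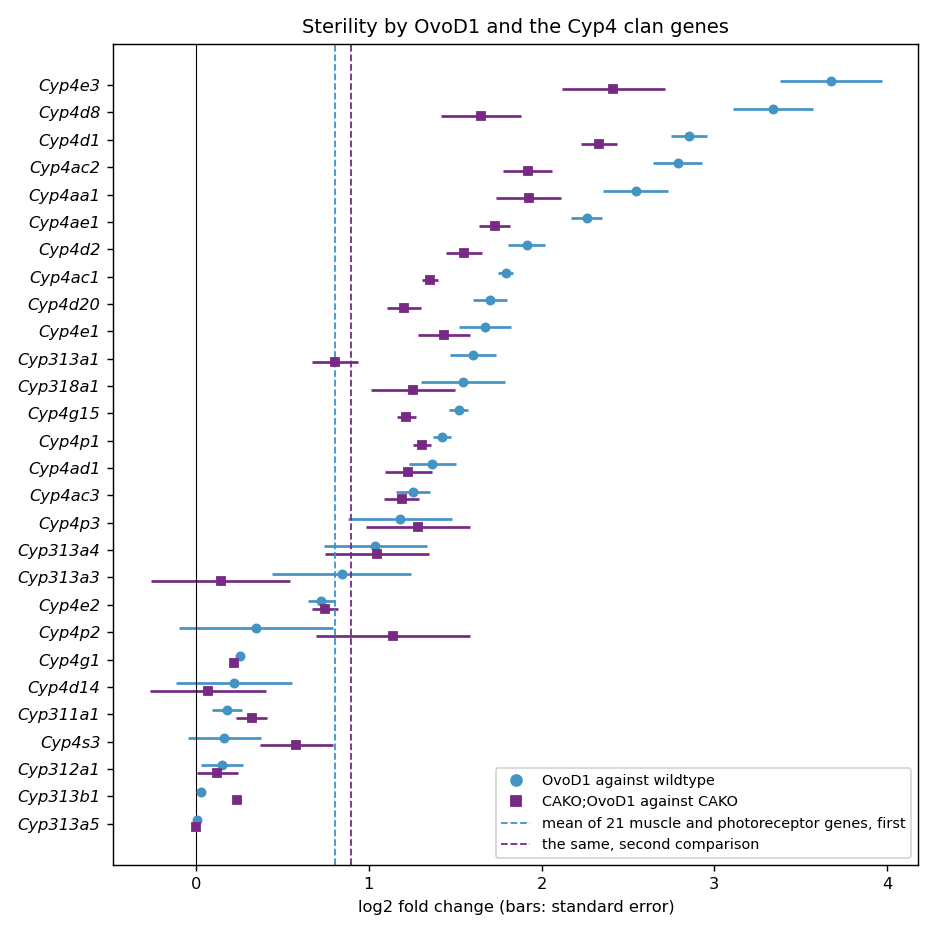
Log2 fold change with OvoD1 (horizontal axis, standard errors as bars) for the 28 tested Cyp4 clan genes, with the gland intact (circles) and ablated (squares); dashed lines mark the mean change of 21 muscle and photoreceptor genes in the same comparisons. Nearly all genes lie right of 0, and those right of both lines include Cyp4e3 (3.67 and 2.42), Cyp4d8 (3.34 and 1.65) and Cyp4d1 (2.85 and 2.33).

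With the gland intact, the largest rises of the clan were those of Cyp4e3, Cyp4d8, Cyp4d1 and Cyp4ac2. Against the array values given above, Cyp4e3 was 12.8-fold higher in OvoD1 than in wildtype (log2 difference 3.67 ± 0.30 SE, limma adjusted p = 2.73e-06) and 5.34-fold higher in CAKO;OvoD1 than in CAKO. Cyp4d8 was 10.1-fold and 3.14-fold higher (limma adjusted p = 9.72e-07 and 0.000148). Cyp4d1 was 7.23-fold and 5.04-fold higher, and every sterile array stood clear of every fertile array. Cyp4ac2 was 6.91-fold and 3.79-fold higher.

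Cyp4aa1 and Cyp4ae1 rose by log2 differences of 2.55 and 2.26 with the gland and of 1.93 and 1.73 without it. Cyp4d2, Cyp4ac1, Cyp313a1, Cyp4g15, Cyp4ad1 and Cyp4ac3 rose by between 1.26 and 1.91 with the gland and between 0.81 and 1.55 without it. None of these genes overlapped between the groups compared. The 2 comparisons of each gene use different arrays, and their difference is the same interaction as above.

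A further 7 genes were called for OvoD1 and not for the ablation. Cyp4d20 rose by 1.70 and 1.20 on the log2 scale, Cyp4e1 by 1.67 and 1.44, Cyp318a1 by 1.55 and 1.26 and Cyp4p1 by 1.43 and 1.31. Cyp4p1 was the most even of them, with 10.41, 10.45 and 10.33 in wildtype, 10.70, 10.63 and 10.54 in CAKO, 11.91, 11.80 and 11.75 in OvoD1 and 11.92, 11.93 and 11.96 in CAKO;OvoD1. Fertile and sterile arrays did not overlap. The ablation went with smaller log2 differences, 0.23 in the fertile pair (limma adjusted p = 0.0168) and 0.11 in the sterile pair (limma adjusted p = 0.208). Neither pair of groups overlapped, and both differences were under the fold threshold.

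The other 3 were Cyp4p3, Cyp313a4 and Cyp4e2. Cyp4p3 rose by 1.18 and 1.29 (limma adjusted p = 0.00654 and 0.00407). Cyp313a4, which lay between 3.09 and 3.45 on the fertile arrays and between 3.88 and 4.99 on the sterile ones, rose by 1.04 and 1.05 (limma adjusted p = 0.0127 and 0.0123). Cyp4e2 rose by 0.73 and 0.75.

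The other 9 genes were tested and called in no comparison. Cyp4d14 ranged from 5.51 to 6.55 with overlap in every comparison. Cyp4p2 ranged from 5.39 to 7.77, and its values of 7.11, 7.77 and 5.95 in CAKO;OvoD1 lay above all 3 CAKO arrays (log2 difference 1.14 ± 0.45 SE, limma adjusted p = 0.0513). Cyp4s3 ranged from 3.50 to 4.47, and its CAKO;OvoD1 arrays lay above all 3 CAKO arrays. That log2 difference of 0.58 ± 0.21 (SE, limma adjusted p = 0.0384) was just short of the fold threshold, at 1.495-fold. Without CAKO;OvoD1 replicate 1 it was 0.83 and was called. Cyp313a3 was between 2.34 and 2.84 on 11 arrays and read 4.39 in OvoD1 replicate 1. The others were Cyp4g1, which differed by 0.26 and 0.22 with OvoD1, and the low readings of Cyp311a1, Cyp312a1, Cyp313a5 and Cyp313b1.

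Tissue markers also differed between OvoD1 and wildtype females, and their part in the Cyp4 results was not tested. With the gland intact, 12 of 12 eggshell genes fell, with a median log2 difference of -9.52, and 8 of 9 germ line genes fell, with a median of -3.75. Of 12 muscle genes 7 rose (median 0.64), of 9 photoreceptor genes 7 rose (median 0.96), of 9 fat body genes 6 rose (median 0.95), and of 5 Malpighian tubule genes 3 rose and 2 fell. Both spermatheca genes and 2 of 5 midgut genes rose, where 25.0% of all genes tested were called higher and 28.5% lower. The log2 of the summed muscle level went from 14.9 on each wildtype array after rounding to between 15.37 and 15.45 in OvoD1, and that of the germ line fell from between 14.6 and 14.7 to between 9.83 and 10.01. For the Malpighian tubule genes it was 13.57 to 13.72 in wildtype and lower, at 12.87 to 12.94, in OvoD1.

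With each array centred on the 21 muscle and photoreceptor genes, which belong to tissues outside the ovary, all log2 differences for OvoD1 dropped by 0.80 with the gland and by 0.90 without it. On that scale 14 clan genes were called higher and 5 lower with the gland, among 11.2% of all genes higher and 66.1% lower. Without the gland 7 were higher and 6 lower, among 6.90% and 67.7%. The 7 were Cyp4aa1, Cyp4ac2, Cyp4ae1, Cyp4d1, Cyp4d2, Cyp4d8 and Cyp4e3, which were also among the 14. Cyp4e2 turned to -0.08 and -0.15 on this scale, and Cyp313a1 without the gland turned to -0.09. The genes called lower included those at or near the floor, whose values the shift moves as a block. Centring on the median of the kept probe sets, a choice made after the data were seen, moved the differences the other way, to 21 higher and 0 lower with the gland, among 33.9% of genes higher and 21.2% lower, and to 23 and 0 without it, among 34.9% and 19.5%.

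Many clan genes lie side by side in the genome. In the RefSeq annotation of the Release 6 assembly, 9 of the 31 are on X, 4 on chromosome arm 2L, 7 on 2R, 4 on 3L and 7 on 3R. No protein-coding gene separates the neighbours in the runs Cyp4ac1, Cyp4ac2 and Cyp4ac3 on 2L, Cyp4ad1, Cyp4e2 and Cyp4e1 and also Cyp4p2, Cyp4p1 and Cyp4p3 on 2R, Cyp4d14, Cyp4d2 and Cyp4ae1 on X, and Cyp313a5, Cyp313a2 and Cyp313a3 on 3R. Cyp316a1 with Cyp4d8 and Cyp311a1 with Cyp318a1 are adjacent pairs, and 2 protein-coding genes lie between Cyp4d1 and Cyp4d14.

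**Figure D4:**
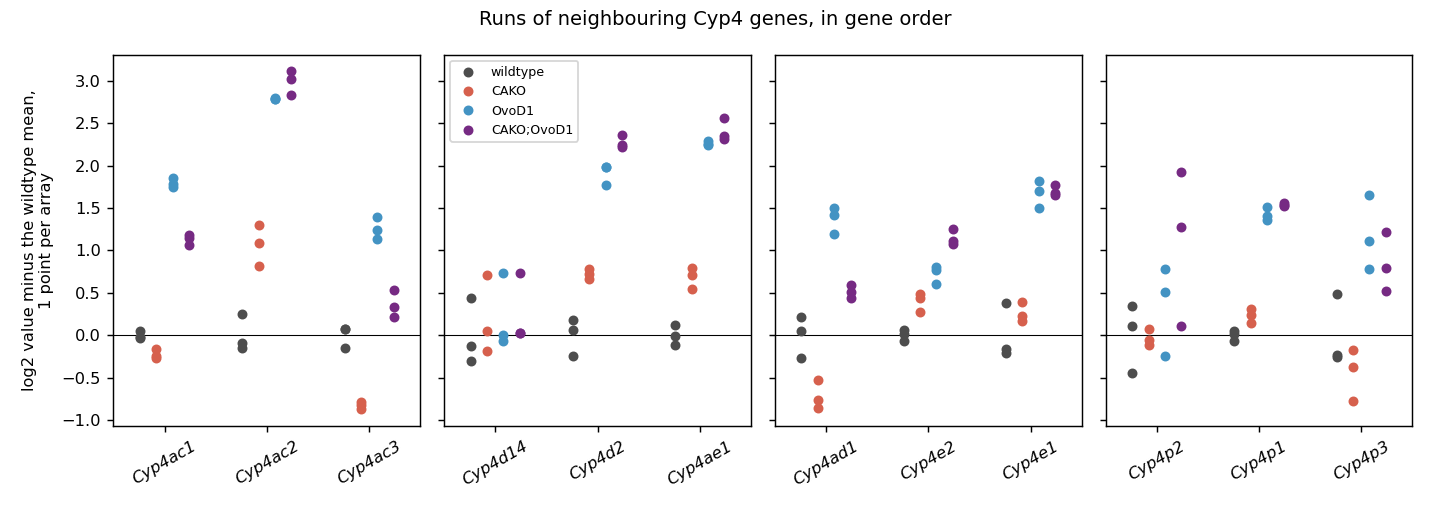
Log2 value of each array minus the wildtype mean (vertical axis) for 4 runs of adjacent Cyp4 genes (panels, genes in chromosome order), with 3 arrays per genotype. In the first run Cyp4ac2 is above wildtype in CAKO (1.07) while Cyp4ac3 is below it (-0.83), and all 3 genes are highest in the OvoD1 genotypes.

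Adjacent genes could differ in direction. In the Cyp4ac run the ablation gave fertile log2 differences of -0.23 for Cyp4ac1, 1.07 for Cyp4ac2 and -0.83 for Cyp4ac3, and sterile differences of -0.66, 0.20 and -0.89. The middle gene thus rose in fertile females between neighbours of which 1 fell and 1 differed by less than 1.5-fold. With OvoD1 all 3 rose, by 1.79, 2.79 and 1.26.

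On X, Cyp4d2 and Cyp4ae1 rose together in fertile CAKO females (0.72 and 0.68), while the adjacent Cyp4d14 overlapped between groups and nearby Cyp4d1 differed by -0.13. On 2R, Cyp4ad1 fell by 0.72 on the log2 scale, next to Cyp4e2 at 0.40 and Cyp4e1 at 0.26, neither of which was called. In the Cyp4p run only the middle gene Cyp4p1 and the last gene Cyp4p3 were called for OvoD1. On 3L, Cyp4d8 rose next to Cyp316a1, which stayed at the floor. Probe sets of near-identical relatives can share signal, and this was not tested.

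Genes listed as possible redox partners of P450 enzymes were also followed. Of the 4 on that list, 3 had a probe set of their own, and P450 reductase was not among these 3. For Cyt-b5-r and CG6870 a role with P450 enzymes was not established here, so their changes are not read as changes of redox partners. Cyt-b5, which encodes cytochrome b5, differed by -0.02 and 0.04 on the log2 scale in the fertile and sterile ablation comparisons, and Cyt-b5-r by -0.01 and -0.27, none of them called. CG6870, the third with a probe set, fell 2.56-fold in fertile females (limma adjusted p = 0.000116) and differed by -0.38 in sterile ones (limma adjusted p = 0.0683), with a called interaction of 0.98. With OvoD1, Cyt-b5-r rose by 0.88 with the gland and 0.63 without it. CG6870 differed by 0.54 with the gland, under the fold threshold, and rose by 1.52 without it (2.87-fold, limma adjusted p = 1.84e-06).

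Cyp4g1 acts at the end of hydrocarbon synthesis, and 17 of 19 genes listed for that pathway had a probe set. The list includes Hnf4, a transcription factor, and kar, whose part in the pathway was not established here. Neither was called in any comparison. The ablation raised 0 of the 17 in either pair and lowered 1, eloF, an elongase of female hydrocarbon synthesis. In fertile females eloF fell 2.12-fold (limma adjusted p = 0.000458). With OvoD1, 7 of the 17, of which 16 were tested, rose in each comparison, beside 25.0% and 25.3% of all genes tested. Of 7 genes listed as regulators of the response to foreign compounds, 0 were called in fertile CAKO females. The list includes Hr38, whose part in that response was not established here. In the sterile pair Hr38, a nuclear receptor, fell by 1.56 from 3.73 to 2.17, within 0.2 of the floor, where it also lay in the fertile groups. In OvoD1 against wildtype Hr38 and Keap1 rose, by 1.57 and 0.63, and Hr96 fell by 0.70, and without the gland 0 of the 7 were called.

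The other P450 clans are given for comparison, as counts without a test. Of 37 CYP3 clan genes, 12 rose and 1 fell in fertile CAKO females, and 5 rose and 3 fell in sterile ones, with 24 higher and 4 lower in OvoD1 against wildtype. Of 8 mitochondrial clan genes, 2 rose with the ablation in fertile females, 1 in sterile females and 6 in OvoD1 against wildtype, and of 4 CYP2 clan genes 1, 1 and 2. Over all genes tested, 3.89% were called higher and 2.30% lower in the fertile pair, and 2.26% and 2.19% in the sterile pair. In OvoD1 against wildtype the shares were 25.0% and 28.5%. The medians for OvoD1 against wildtype were 1.47, 1.72 and 0.65, beside 1.26 in the Cyp4 clan. For the ablation, in the same order, they were 0.45, 0.24 and 0.03 in fertile females, beside 0.01 in the Cyp4 clan. In sterile females they were 0.18, 0.25 and -0.04, beside 0.04.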

How the data were processed

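RNA of whole females was hybridised to Affymetrix Drosophila 2.0 arrays. The deposited values are log2 expression values that the authors made with GC-RMA; the version was not given in the sources used here. The members and all gene lists were chosen with earlier results of these data known. Probe sets were named through GEO's platform annotation: of 18952, 13647 had 1 gene, 402 several and 4903 none, and the probe set with the highest mean stood for a gene. The methods exclude probe sets in the lowest quartile (25%) within a genotype and do not say in how many; here 5081 that lay there in every genotype were dropped, which kept 13871, and dropping those in at least 1 genotype (11697 kept) was an alternative. Group means were fitted with limma 3.58.1 in R 4.3.3 (trended variance, 8 residual degrees of freedom), with Benjamini-Hochberg adjustment per contrast over the kept probe sets. The methods' two-sided t-test and other filters, centrings, thresholds, a replicate block, array weights and left-out arrays were alternatives. Every clan member is accounted for, and those called in any contrast are named with values. Of 121 listed symbols, 19 had no probe set of their own. The study calls the arrays independent biological replicates. The number of arrays limits precision, and with 3 against 3 an exact permutation test of a single gene cannot go below 0.1.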

Additional observations from a re-analysis of the deposited data

Results flagged for a closer look

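For 6 clan genes the effect of the ablation had an adjusted p under 0.05 in limma's interaction test (sterile minus fertile, log2 scale), and 3 of these were also 1.5-fold and counted as called. The differences were -1.69 for Cyp4d8 (limma adjusted p = 0.0219), -0.87 for Cyp4ac2 (limma adjusted p = 0.0444) and -0.80 for Cyp313a1 (limma adjusted p = 0.0467). They were -0.53 for Cyp4ae1 (limma adjusted p = 0.0488), -0.44 for Cyp4ac1 (limma adjusted p = 0.00645) and 0.21 for Cyp313b1 (limma adjusted p = 0.00630), all 3 under 1.5-fold and not called. Cyp4ac1 was lower with the ablation in both pairs, by 0.23 and 0.66 in size, and Cyp313b1 was near the floor in every genotype.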

How the results depend on the processing

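Centring on muscle and photoreceptor genes changed the most results. The median over the 31 genes turned from 0.01 to -0.17 in the fertile and from 0.04 to -0.24 in the sterile ablation comparison, and it dropped to 0.45 and 0.29 for OvoD1 with and without the gland. The counts became 5 higher in the fertile pair (Cyp4ae1, Cyp4d2 and Cyp4g15 were lost), 5 lower in the interaction, 5 lower for OvoD1 with the gland, and 7 higher and 6 lower without it. For OvoD1 with and without the gland this centring gave -0.62 and -0.58 for Cyp311a1, -0.65 and -0.77 for Cyp312a1, -0.077 and -0.15 for Cyp4e2, -0.55 and -0.68 for Cyp4g1, and -0.64 and -0.32 for Cyp4s3. Without the gland it gave -0.092 for Cyp313a1, -0.76 for Cyp313a3, -0.66 for Cyp313b1 and -0.83 for Cyp4d14. In the ablation comparisons it gave -0.058 and -0.19 for Cyp4g1 and -0.038 for Cyp313b1 in the sterile pair. Centring on the median of the kept probe sets, chosen after seeing the data, gave medians of 1.63 and 1.55 for OvoD1, a shift of 0.37 and 0.36 in all genes.

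With the methods' t-test after Benjamini-Hochberg adjustment, 3 genes were higher and 1 lower in the fertile pair, 2 lower in the sterile pair and 0 lower in both; unadjusted, it kept every member's call in the 4 pairwise comparisons. With a 2-fold threshold, 4 were higher and 0 lower in the fertile pair, 0 lower in the sterile pair, 0 lower in both and 1 lower in the interaction. With no fold threshold, 5 were higher in the sterile pair, 4 higher in both, and the interaction had 1 higher and 5 lower. Fitting only the groups compared left 1 lower in the fertile pair and 1 lower in both. The interaction had 1 gene lower with no filter and 1 with array weights. The cause of these changes was not tested, apart from the threshold settings, which change the call by construction. The share of all genes called under each of these settings is not given here. These counts show how the clan calls moved and not how the clan stood against other genes.

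Leaving out single arrays gave 7 to 8 higher and 2 lower in the fertile pair, 1 to 2 higher and 3 to 5 lower in the sterile pair, and 1 to 2 higher and 2 lower in both. The interaction had 0 to 3 lower and 0 higher. OvoD1 raised 19 to 20 genes with the gland and 19 to 20 without it, and lowered 0. For the left-out arrays, too, shares of all genes are not given. The medians ranged from 0 to 0.06 (fertile), 0.01 to 0.12 (sterile), -0.21 to -0.05 (interaction), 1.18 to 1.39 (OvoD1 with the gland) and 1.03 to 1.23 (without it). For OvoD1 without the gland, Cyp313a3 ranged from -5.6e-04 (without CAKO;OvoD1 replicate 2) to 0.23, and Cyp4d14 from -0.17 to 0.33, with negative values without CAKO replicate 2 (-0.0043), CAKO replicate 3 (-0.12) or CAKO;OvoD1 replicate 3 (-0.17).

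Replicate numbers are only names here: same-numbered arrays had residual correlations from -0.16 to 0.15. With the replicate number as a block, 8 genes were higher and 2 lower in the fertile pair and 1 and 4 in the sterile pair, and the interaction had 2 lower, since Cyp4ac2 was lost (limma adjusted p = 0.0763). The block changed no other call. Genes at the floor or, like Cyp4g1, near the array maximum limit what a difference can show.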
